A study of Sus scrofa with 8 samples.

Results

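Cathepsins are proteases that work mainly in the acidic interior of lysosomes, where they break down proteins taken up from outside the cell or delivered from the cytoplasm. Most are cysteine proteases of the papain family, made as inactive precursors and trimmed to the active enzyme, and cystatins are their protein inhibitors. In blood they are known best from monocytes, macrophages, neutrophils and antigen-presenting cells, where they degrade engulfed material and prepare peptides for MHC class II.

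The cathepsin family was taken here as every array probe whose RefSeq transcript carries a pig symbol of CTS plus a single letter. This gave 6 of the 2389 genes that the array's probes could be named to, on 20 of its 43603 probes: CTSB with 4 probes, CTSD and CTSH with 2 each, CTSK and CTSZ with 1 each, and CTSV with 10. The pig name table holds 13 symbols of this form. The other 7, CTSA, CTSC, CTSF, CTSL, CTSO, CTSS and CTSW, had no probe matched to a symbol and were not analysed here. Each probe was numbered within its gene from the brightest, probe 1, downwards. In all, 10 probes of 5 genes (of 26476 probes and 1817 named genes in the test) were well above background on every array, and the 10 CTSV probes were not carried into the test.

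Expression was measured in whole blood of 8 sows (Sus scrofa), all inseminated 14 days before the draw and all of the fifth parity: 4 pregnant sows and 4 non-pregnant sows, with 1 single-colour Agilent array each. The series' design text describes the animals as 3 half-sib pairs and 1 unrelated pair split between the groups, and no label names their breed. The arrays lay on 2 slides with 2 arrays of each group on each: replicates 2 and 4 on slide 2, replicates 1 and 3 on slide 1. A level below is the log2 signal of a probe minus the 75th percentile of its array, so that 0 marks a probe at that percentile. Levels of different probes depend on how well each probe binds and are not set against each other.

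The 75th percentile of the signal lay between 143 and 298 on the 8 arrays, and 61.7% to 69.3% of probes were well above background. Pregnant replicate 2 stood apart from the rest. Its 75th percentile was the lowest (143), its median correlation with the other arrays was 0.903 where the other 7 had 0.949 to 0.968, and it lay at 154 on the first principal component, with the others between -76.8 and 29.0. Values without this array are given beside the main results it moved. Of the blood cell markers, named probes above background were present for monocytes (9 genes), neutrophils (7), T cells (8), cytotoxic lymphocytes (7), B cells (2) and platelets (4), while the red cell list had 0 genes with a named probe. In whole blood, fewer cells of a type and less RNA per cell cannot be told apart.

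No cathepsin probe passed the test of pregnant against non-pregnant sows. CTSB, CTSH (both probes) and CTSZ averaged higher in pregnant sows and CTSD and CTSK lower, and for every one of the 10 probes the values of the groups overlapped. The differences ran from -0.084 to 0.45 on the log2 scale, with a median of 0.15 and 7 of 10 above 0. Over all 26476 probes the median was -0.044 and 43.3% were above 0. Without pregnant replicate 2 the cathepsin median was 0.28 with 9 of 10 above 0 (-0.0081 and 48.8% over all probes), and without pregnant replicate 1 it was 0.027 with 7 of 10 above 0. These counts take CTSB 4 times, once for each of its probes. By the brightest probe of each gene, 3 of 5 genes were above 0 with a median of 0.031 (802 of 1817 named genes, median -0.036). Without pregnant replicate 2 these were 4 of 5 and 0.17 (785 of 1817 and -0.043). Limma called 0 of the 10 probes after Benjamini-Hochberg adjustment over all probes, and 0% of all probes. At an unadjusted p under 0.05 there were likewise 0 of 10, against 2.28% of all probes. Without pregnant replicate 2 there were 2 of 10, with array weights 1 of 10 and on slide 1 alone 1 of 10. Limma called 0 of 10 after adjustment in each of these settings, and the share of all probes was not worked out for them. Probes whose pregnant values all lay above the non-pregnant ones made up 0.895% of all probes and those with all values below 0.687%, and 0 of the 10 cathepsin probes were among either.

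**Figure D1:**
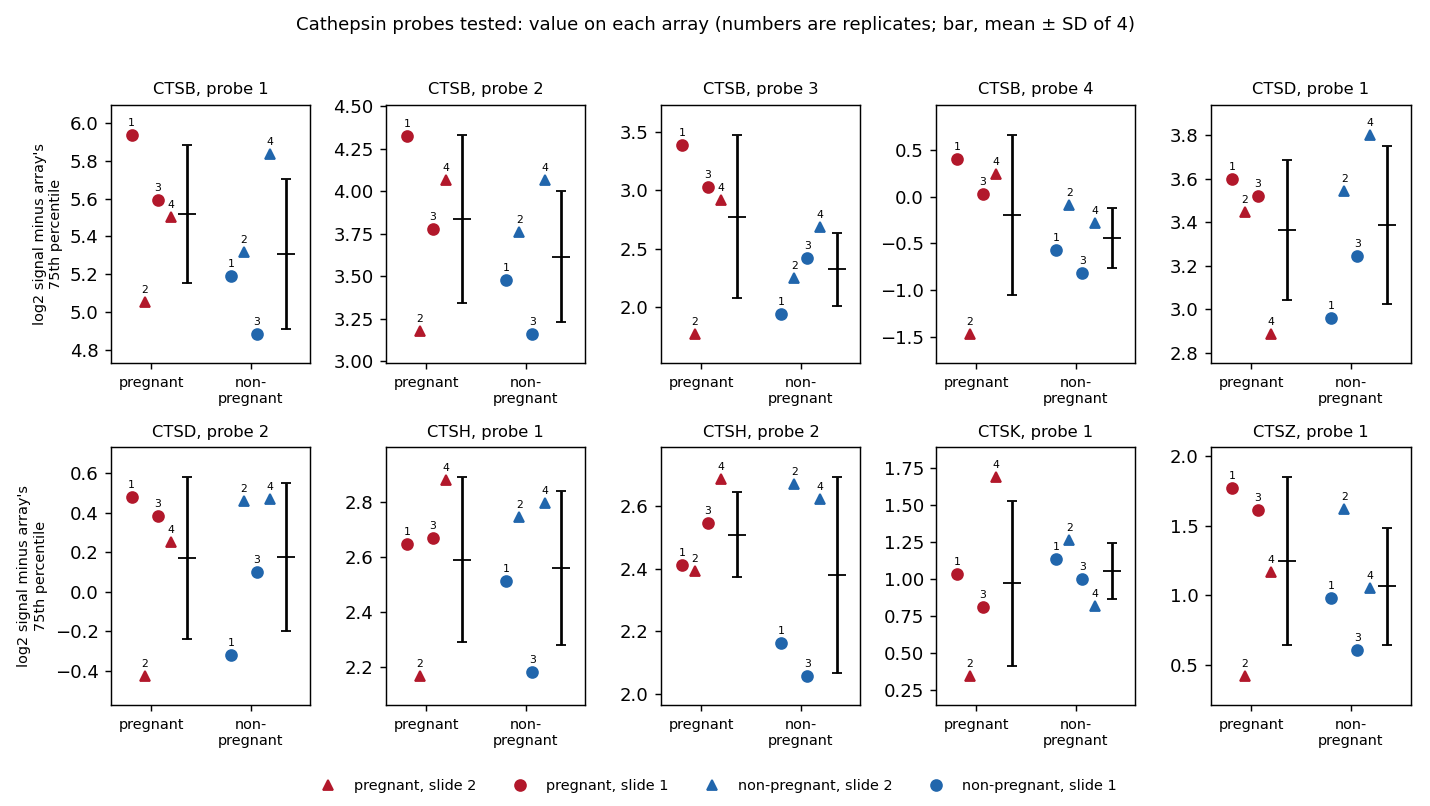
Level of each of the 10 tested cathepsin probes (log2 signal minus the array's 75th percentile, vertical axis, own scale per panel) on the 4 pregnant and 4 non-pregnant arrays, with triangles for slide 2, circles for slide 1, replicate numbers above the points and the mean ± SD beside them. The groups overlap in every panel, and pregnant replicate 2 is the lowest of the 8 arrays in 6 of the 10.

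CTSB encodes cathepsin B, a cysteine protease that cuts within proteins and also trims dipeptides from their ends. Its probe 1 (A_72_P077676) stood at 5.93, 5.05, 5.59 and 5.50 in pregnant replicates 1 to 4, against 5.19, 5.32, 4.89 and 5.83 in non-pregnant replicates 1 to 4. Pregnant replicate 1 was the highest of the 8 and non-pregnant replicate 3 the lowest, and the groups overlapped. The means were 5.52 ± 0.36 in pregnant and 5.31 ± 0.39 in non-pregnant sows (SD, n = 4 each), a 1.16-fold difference with a 95% interval of 0.738 to 1.82.

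The other CTSB probes pointed the same way. Probe 3 (A_72_P562909) had the largest difference of the family: its levels were 3.39, 1.78, 3.02 and 2.91 in pregnant replicates 1 to 4, against 1.95, 2.25, 2.42 and 2.68 in non-pregnant replicates 1 to 4. Of the pregnant values, 3 lay above every non-pregnant one, and pregnant replicate 2 lay below them all. The probe was 1.37-fold higher (95% interval 0.782 to 2.39), which limma did not separate from 0 (unadjusted p = 0.240). Its log2 difference of 0.45 was 0.78 without pregnant replicate 2 and 0.25 without pregnant replicate 1. Probes 2 and 4 were 1.17-fold and 1.18-fold higher, and probe 4 was at -1.47 on pregnant replicate 2, where the other 7 arrays ran from -0.82 to 0.40. The log2 differences of probes 1, 2 and 4 were 0.21, 0.22 and 0.24 over all arrays. They were 0.37, 0.44 and 0.67 without pregnant replicate 2, and 0.075, 0.058 and 0.042 without pregnant replicate 1.

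CTSD encodes cathepsin D, the aspartic protease of the lysosome and so of another catalytic type than the other 5 genes. Its probe 1 (A_72_P178086) had levels of 3.60, 3.45, 3.52 and 2.89 in pregnant replicates 1 to 4, against 2.96, 3.54, 3.24 and 3.80 in non-pregnant replicates 1 to 4. The lowest value was that of pregnant replicate 4 and the highest that of non-pregnant replicate 4. The ratio of pregnant to non-pregnant was 0.984 (95% interval 0.639 to 1.52) for this probe and 0.997 (0.630 to 1.58) for probe 2. For probe 2 the lowest value was that of pregnant replicate 2 (-0.42, with the others at -0.32 to 0.48), and its log2 difference was 0.19 without that array.

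CTSH encodes cathepsin H, a cysteine protease that acts chiefly as an aminopeptidase, and its probes had the narrowest range of the family across the sows. Probe 1 (A_72_P035971) stood at 2.65, 2.17, 2.67 and 2.88 in pregnant replicates 1 to 4, against 2.51, 2.75, 2.18 and 2.80 in non-pregnant replicates 1 to 4. A single array of each group lay low, pregnant replicate 2 and non-pregnant replicate 3. All 8 values of probe 2 lay within 0.62 of each other on the log2 scale, and those of probe 1 within 0.71. The median of all tested probes spanned 1.34. Probes 1 and 2 were 1.02-fold (95% interval 0.684 to 1.52) and 1.09-fold (0.751 to 1.59) higher in pregnant sows. The log2 difference of probe 1, 0.031, was 0.17 without pregnant replicate 2, and leaving out non-pregnant replicate 3 gave -0.095.

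CTSK encodes cathepsin K, known in human and mouse as the collagen-degrading cysteine protease of osteoclasts. Its probe (A_72_P146366) was well above background on all 8 arrays, with levels of 1.04, 0.35, 0.81 and 1.69 in pregnant replicates 1 to 4, against 1.14, 1.27, 1.00 and 0.82 in non-pregnant replicates 1 to 4. The pregnant sows held both the lowest and the highest value. Their SD was 0.56, against 0.19 in non-pregnant sows (n = 4 each), a difference in spread that was not tested. The ratio of the groups was 0.943 (95% interval 0.586 to 1.52). The log2 difference, -0.084, was 0.12 without pregnant replicate 2 and -0.32 without pregnant replicate 4.

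CTSZ encodes cathepsin Z, also called cathepsin X, a cysteine protease that removes single residues from the carboxyl end. Its probe (A_72_P157891) stood at 1.77, 0.42, 1.61 and 1.17 in pregnant replicates 1 to 4, against 0.98, 1.62, 0.60 and 1.05 in non-pregnant replicates 1 to 4. The highest and the lowest value both came from pregnant sows. CTSZ was 1.13-fold higher in pregnant sows (95% interval 0.657 to 1.96). Its log2 difference of 0.18 was 0.46 without pregnant replicate 2. Leaving out pregnant replicate 1 gave 0.0043, and leaving out non-pregnant replicate 3 gave 0.028.

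CTSV had no probe that could be compared. The pig name table gives this gene the older names CTSL, CTSL1 and CTSL2 and lists a separate CTSL gene, which had no probe here. Human cathepsin V is a close relative of cathepsin L. Of 80 readings (10 probes on 8 arrays), 13 were well above background, 6 of 40 in pregnant and 7 of 40 in non-pregnant sows. On single arrays the count of probes above background was 2, 3, 0 and 1 in pregnant replicates 1 to 4, against 4, 3, 0 and 0 in non-pregnant replicates 1 to 4.

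Probe 2 of CTSV (A_72_P586471) was above background most often, on 3 pregnant and 2 non-pregnant arrays, and 5 of the 10 probes were above background on 0 arrays. All 80 levels lay between -7.10 and -3.48, where the lowest probe well above background was at -5.03 to -4.10, depending on the array. Since all 10 probes carry the same RefSeq transcript, they share a target and are not 10 separate measurements of the blood. Whether probes read related transcripts was not tested.

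**Figure D2:**
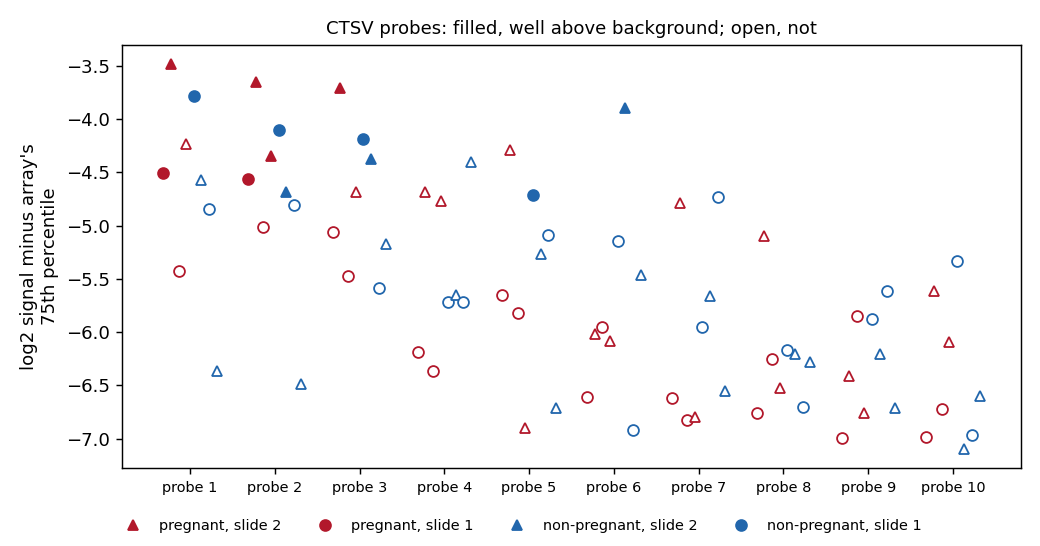
Level of the 10 CTSV probes (log2 signal minus the array's 75th percentile) on the 8 arrays, filled where the scanner software marked the spot as well above background and open where it did not, with triangles for slide 2 and circles for slide 1. The 13 filled points fall in both groups and on 5 of the 10 probes.

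The differences by pregnancy had opposite signs on the slides for most cathepsins. Whether the slides differ in this could hardly be tested, with 2 sows of a group on each. On slide 2, with pregnant replicates 2 and 4 against non-pregnant replicates 2 and 4, all 10 probes averaged lower in the pregnant sows. The groups were fully parted there in the 2 CTSD probes, in the lower direction (2 of 10, against 15.1% of all probes), and in 0 of 10 in the higher direction (12.7% of all probes). On slide 1, with pregnant replicates 1 and 3 against non-pregnant replicates 1 and 3, both pregnant values lay above both non-pregnant ones for all probes of CTSB, CTSD, CTSH and CTSZ. These were 9 of the 10 probes, where 11.6% of all probes had pregnant values above in this way and 11.3% had them below. A negative difference on slide 2 together with a positive one on slide 1 was seen in 9 of the 10 cathepsin probes and in 27.9% of all probes. In both counts the 9 probes belonged to 4 of the 5 genes, and probes of the same gene are not separate measurements of the blood. By the brightest probe of each gene, 4 of 5 genes were positive on slide 1 and 0 of 5 on slide 2. Among the named genes these were 898 and 782 of 1817. Each slide holds 2 sows of a group, so pregnancy and differences between single animals cannot be told apart within it.

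The negative signs on slide 2 rested on pregnant replicate 2 for 6 of the 10 probes, those of CTSB probes 2 to 4, CTSH and CTSK. With it the median log2 difference was -0.29 (-0.053 over all probes), and CTSZ and the CTSD probes were at 0.687, 0.705 and 0.683 times their non-pregnant level. Without it, pregnant replicate 4 alone against both non-pregnant sows gave 6 positive and 4 negative probes with a median of 0.072, close to all probes (53.4% positive, median 0.048). Both CTSD probes, CTSZ (-0.17) and CTSB probe 1 (-0.070) were still negative. By the brightest probe of each gene, 2 of 5 genes were then positive (median -0.070), with 794 of 1817 named genes (median -0.064). CTSB probe 3 then had a log2 difference of 0.45 in place of -0.12, CTSK 0.65 in place of -0.023, CTSD probe 1 -0.78 in place of -0.50 and CTSD probe 2 -0.21 in place of -0.55. Without pregnant replicate 4 in its place, all 10 probes were negative (median -0.69, with -0.21 over all probes).

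On slide 1 CTSB was 1.65-fold to 2.03-fold higher over its 4 probes, CTSZ 1.87-fold, CTSD 1.37-fold and 1.45-fold and CTSH 1.24-fold and 1.29-fold, while CTSK stood at 0.904 times its non-pregnant level. The median log2 difference of the 10 probes was 0.63, with -0.034 over all probes. Leaving out any single array of slide 1 gave a median between 0.47 and 0.74. The 9 positive probes had to stay positive there, since both pregnant values lay above both non-pregnant ones.

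**Figure D3:**
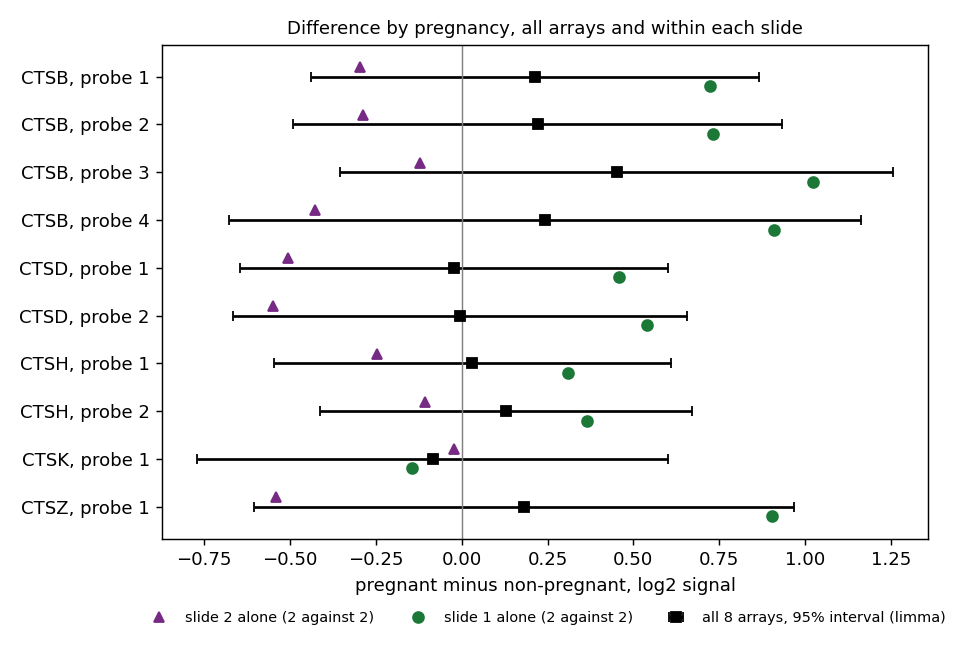
Pregnant minus non-pregnant difference of the 10 tested cathepsin probes on the log2 scale (horizontal axis), over all 8 arrays with the 95% interval from limma (squares), on slide 2 alone (triangles) and on slide 1 alone (circles). Every interval covers 0, and the slide 2 values lie to the left of 0 for all 10 probes, with the slide 1 values to the right for all but CTSK.

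The difference between the slides was itself tested, as the interaction of pregnancy and slide. CTSZ had the largest one, -1.44 ± 0.61 on the log2 scale (SE), with an unadjusted p of 0.0446 and a limma adjusted p of 0.893. It was the only cathepsin probe at an unadjusted p under 0.05 (1 of 10, against 5.57% of all probes), and limma called 0 of 10 after adjustment (0% of all probes). The median of the 10 probes was -1.02, where that of all probes was -0.0031, and without pregnant replicate 2 it was -0.57.

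No cathepsin probe passed the test of slide 2 against slide 1. The slide 2 minus slide 1 difference ran from -0.29 for CTSB probe 3 (2.41 ± 0.50 on slide 2 against 2.70 ± 0.64 on slide 1, SD, n = 4 each) to 0.30 for CTSH probe 2 (2.59 ± 0.14 on slide 2 against 2.30 ± 0.22 on slide 1), with a median of 0.031. That median had no firm sign: it was 0.28 without pregnant replicate 2, and leaving out non-pregnant replicate 4 gave -0.083. The difference of CTSB probe 3 was 0.052 without pregnant replicate 2. Limma called 0 of the 10 probes with pregnancy in the model, as for all probes (0%), and 0 of 10 had an unadjusted p under 0.05 (2.77% of all probes). The slides did not part fully in any cathepsin probe (0 of 10, against 2.18% of all probes). Among pregnant sows alone the median difference was -0.46, and among non-pregnant sows alone 0.53.

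Probes of the same gene moved together across the 8 sows. Over the 8 same-gene pairs of probes Pearson's r had a median of 0.80. It reached 0.94 between CTSB probes 1 and 2 and was lowest between the CTSD probes, at 0.50 (0.76 without pregnant replicate 2). The CTSH probes had an r of 0.79, and 0.93 without that array. These values describe 8 arrays that share their scaling, and no test was made of them.

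Between genes the levels were less alike. Taking the brightest probe of each of the 5 genes, the 10 pairs had a median r of 0.44. CTSB went with CTSH (0.75) and CTSZ (0.72), and CTSH with CTSZ (0.73). Without pregnant replicate 2 these were 0.71, 0.65 and 0.57. CTSK had an r of 0.62 with CTSH, 0.40 with CTSZ, 0.15 with CTSB and -0.57 with CTSD. Without pregnant replicate 2 its values were 0.35, -0.021, -0.19 and -0.70. CTSD and CTSH had an r of 0.090.

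Among 1812 named genes outside the family, each gene's brightest probe was compared with each cathepsin over the 8 arrays, and the 2 of highest r are named as a description. For CTSB these were ITGAL (r = 0.97, Spearman's rho = 0.93), the integrin chain of leukocyte LFA-1, and SIRT2 (0.94, 0.93), a deacetylase. For CTSD they were FASN (0.94, 0.93), the fatty acid synthase, and VARS (0.92, 0.98), the valyl-tRNA synthetase. Leaving out the 2 arrays farthest from the median of the cathepsin kept these 4 at r between 0.93 and 0.97 over the 6 others. Here and below the genes were picked by r over the same 8 arrays, so values over 6 of them are no separate check.

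For CTSZ the nearest were CAPN3 (r = 0.93, Spearman's rho = 0.90), a calpain, and AQP3 (0.92, 0.86), a water and glycerol channel, with r of 0.84 each over the 6 others. For CTSK they were PPP2R5A (0.96, 0.95), a regulatory subunit of protein phosphatase 2A, and FBXW4 (0.95, 0.74), and for CTSH they were THY1 (0.92, 0.90) and DCPS (0.91, 0.86), which removes the cap from decayed mRNA. With the 2 farthest arrays left out FBXW4 was at 0.66, THY1 at 0.75 and DCPS at 0.53, and PPP2R5A at 0.93. The arrays left out were pregnant replicate 2 with non-pregnant replicate 3 for CTSH and with pregnant replicate 4 for CTSK, and a narrower range of levels by itself lowers r.

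Other lysosomal genes were mostly negative on slide 2 and positive on slide 1, as the cathepsins were. Of 52 genes listed, from hydrolases to membrane proteins and sorting receptors, 17 were measured and limma called 0 in either direction. Over all 8 arrays 5 were positive and 12 negative, with a median log2 difference of -0.048, against 802 positive and 1015 negative of 1817 named genes (median -0.036). On slide 2, 1 of the 17 was positive (median -0.31), as were 782 of the 1817 named genes, and on slide 1, 15 of 17 were (median 0.31), as were 898 of 1817. Without pregnant replicate 2 the lysosomal list had 13 of 17 positive over all arrays (median 0.14) and 9 of 17 on slide 2 (median 0.0060), with 785 and 794 of the 1817 named genes.

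The list's mean level was 2.06, 1.24, 1.75 and 1.91 in pregnant replicates 1 to 4, against 1.74, 1.80, 1.55 and 2.02 in non-pregnant replicates 1 to 4, again lowest on pregnant replicate 2. LIPA, the lysosomal acid lipase, had the smallest unadjusted p of the list (0.250) and stood at 0.759 times its non-pregnant level, with log2 differences of -1.01 on slide 2 and 0.21 on slide 1. NEU1, the lysosomal sialidase, was 1.22-fold higher, and NPC2, a cholesterol-binding protein of the lysosome, was at 0.871 times. None of the 3 passed the test (limma adjusted p = 1.00 each). Without pregnant replicate 2 the log2 difference of LIPA was -0.19 in place of -0.40, that of NEU1 0.54 in place of 0.29 and that of NPC2 -0.11 in place of -0.20.

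The inhibitors had 3 measured genes of 15 listed, and limma called 0. CST3, cystatin C, which is secreted and binds papain-type cathepsins, stood at 6.81, 5.25, 5.89 and 6.13 in pregnant replicates 1 to 4, against 5.99, 5.88, 5.83 and 6.80 in non-pregnant replicates 1 to 4. Its log2 differences were -0.65 on slide 2 and 0.44 on slide 1, opposite in sign as for most cathepsins. Over all arrays it was -0.10, and 0.15 without pregnant replicate 2. CSTB, the intracellular cystatin B, was at 0.964 times its non-pregnant level (0.992 times without pregnant replicate 2) and SLPI, which inhibits serine proteases such as cathepsin G and neutrophil elastase, at 0.978 times, or 0.727 times without pregnant replicate 2.

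Genes of processes in which cathepsins cut proteins in human and mouse cells gave no call either. Their RNA levels do not show how much protein is cut. Cathepsin C, whose gene CTSC had no probe matched to a symbol, activates the granule serine proteases, of which 5 of 11 listed were measured. Of these 4 were negative, with a median log2 difference of -0.53, and GZMB, GZMH and GZMK stood at 0.527, 0.611 and 0.691 times their non-pregnant level (limma adjusted p = 1.00 each). Without pregnant replicate 2 they stood at 0.600, 0.563 and 0.741 times. The positive gene, GZMM, then had a log2 difference of -0.39 in place of 0.36, so that 0 of 5 were positive (median -0.53). GZMA and GZMB are also among the cytotoxic lymphocyte markers below. MHC class II processing, for which cathepsins cut the invariant chain, had 10 measured genes of 14 listed, of which 1 was positive and 9 negative (median -0.17), or 3 positive without pregnant replicate 2 (median -0.12). SLA-DQB1, SLA-DQA1 and SLA-DRA stood at 0.827, 0.828 and 0.818 times their non-pregnant level, with adjusted p = 1.00 each (limma). Without pregnant replicate 2 these were 0.882, 0.904 and 0.924 times. The MHC class II list had 2 of 10 genes positive on slide 2 and 5 of 10 on slide 1, against 782 and 898 of the 1817 named genes. Over all arrays 802 of the 1817 were positive, or 785 without pregnant replicate 2.

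**Figure D4:**
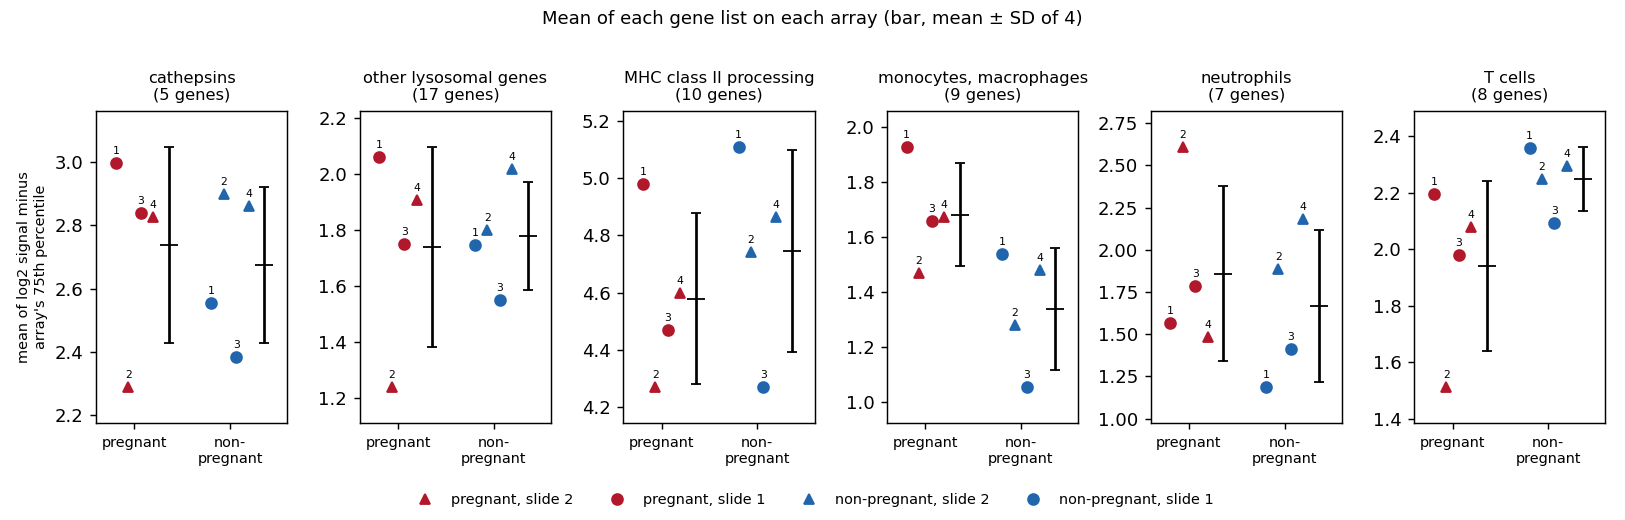
Mean level of 6 gene lists (log2 signal minus the array's 75th percentile, brightest probe per gene) on the 4 pregnant and 4 non-pregnant arrays, with triangles for slide 2, circles for slide 1, replicate numbers above the points and the mean ± SD beside them. Cathepsins and other lysosomal genes are lowest on pregnant replicate 2 (2.29 and 1.24), where neutrophil markers are highest (2.61) and T cell markers lowest (1.51).

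Markers of blood cell types also varied between these arrays. The 9 monocyte and macrophage markers averaged 1.93, 1.47, 1.66 and 1.67 in pregnant replicates 1 to 4, against 1.54, 1.28, 1.05 and 1.48 in non-pregnant replicates 1 to 4. All 9 had a positive difference (limma called 0), with LYZ 1.56-fold, TLR4 1.35-fold and CD163 1.56-fold higher. Of the 1817 named genes 802 had a positive difference. The mean difference of the 9 markers was 0.19 on slide 2, where that of the 5 cathepsins was -0.32. On slide 1 it was 0.50, where that of the cathepsins was 0.45.

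Neutrophil markers averaged 1.56, 2.61, 1.78 and 1.48 in pregnant replicates 1 to 4, against 1.19, 1.88, 1.41 and 2.18 in non-pregnant replicates 1 to 4. They were highest on pregnant replicate 2, the array lowest for 6 of the 10 cathepsin probes and for 37.9% of all probes. The same array was highest for 0 of the 10 and for 21.8% of all probes. NPG4, a protegrin, stood at 1.97 times and MMP9, a gelatinase, at 0.469 times the non-pregnant level. NPG4 was at 3.06 on pregnant replicate 2, with the other 7 arrays at 0.16 to 1.15, and stood at 1.29 times without it. The list had 5 of 7 markers positive (median 0.20), and 3 of 7 without that array (median -0.013). On slide 1, 6 of 7 were positive (median 0.55), and on slide 2, 2 of 7 (median -0.24). Among the named genes these were 898 and 782 of 1817. Without pregnant replicate 2, 1 of 7 was positive on slide 2 (median -0.82), with 794 of the 1817 named genes. T cell markers averaged 2.20, 1.51, 1.98 and 2.08 in pregnant sows against 2.36, 2.25, 2.09 and 2.29 in non-pregnant sows, with 0 of 8 positive, and CD3D, LCK and CD4 stood at 0.660, 0.745 and 0.742 times the non-pregnant level. Without pregnant replicate 2 these were 0.760, 0.770 and 0.887 times, and 2 of 8 were positive. Of the remaining lists, 0 of 7 cytotoxic lymphocyte, 0 of 2 B cell and 1 of 4 platelet markers were positive, and limma called 0 in each. Fewer named genes were positive than negative as well, with 802 of 1817 positive, or 785 without pregnant replicate 2. The part of these cell types in the cathepsin levels was not tested.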

How the data were processed

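Whole blood RNA of 8 sows was labelled with Cy3 and hybridised to 1 Agilent array per sow. The authors deposited scanner files from Agilent Feature Extraction (version 10.7.3.1 per the file headers, 10.7 per the submitters' processing notes), whose processed signal is a linear intensity, background-subtracted and not normalized between arrays. A second deposited file holds log2 values made by the authors in a way that no label describes. It correlated with log2 of the processed signal at r of 0.99895 or higher on every array, and every column had a median of 5.03. Its centring and software are unknown, and it served as an alternative.

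Control spots and outlier spots were left out, repeat spots were averaged as log2 values, and the 75th percentile of each array was subtracted. Of 43603 probes, 215 were dropped for flagged spots. A probe entered the test if 1 group or both had it well above background on all 4 arrays (26476 probes, 61.0% of the rest). Of 5779 probes with a RefSeq transcript, 5461 were matched to 2389 symbols through RefSeq names of Sscrofa11.1, used for names only. Where a gene list is described, a gene is its brightest tested probe (1817 genes).

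Limma 3.58.1 in R 4.3.3 (lmFit and eBayes, two-sided, Benjamini-Hochberg adjustment over all tested probes, threshold 0.05) was fitted to group alone, to group and slide, and to their interaction. Tables used pandas 2.3.3 in Python 3.11.15, and plots matplotlib 3.10.9. The fits were tested on simulated data, where the interaction made no call and small changes were seldom called, so a count of 0 there says little. Precision is limited by the 8 arrays, and the 95% interval of a cathepsin probe reached 0.54 to 0.92 on the log2 scale to either side. No spot was saturated (0 on each array).

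The family and the gene lists were chosen with earlier results of these data known. All cathepsin probes are described. Named from the lists are up to 3 genes of smallest unadjusted p, and for each cathepsin the 2 named genes of highest r. Alternatives were other scalings and background corrections (normexp, offset 50, on median spot signals), other filters, array weights, a trended and robust variance, a gene's brightest probe or mean, the slide or replicate number as a block, each slide or group alone, and each array left out in turn.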

Additional observations from a re-analysis of the deposited data

How the results depend on the processing

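The count of cathepsin probes called was 0 under every alternative run: 22 for pregnancy (smallest limma adjusted p of a cathepsin 0.511, with array weights), 21 for slide (0.578, with no filter on dim probes) and 18 for the difference between slides (0.392, without pregnant replicate 4, where 5 of 10 had an unadjusted p under 0.05). In the main fit the interaction called 0 of all probes too, and without non-pregnant replicate 2 it called 2. It has little power in this design, so its counts of 0 show no stability. The labels do not tie replicate numbers to the half-sib pairs. Same-numbered sows had correlations of their deviations of 0.22, 0.48, 0.43 and -0.12, so pairing by number was neither assumed nor excluded. Replicates 2 and 3 correlated best with their own number and replicates 1 and 4 with each other's. The fit with the replicate block called 0 as well.

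The median log2 difference by pregnancy (0.15) ranged from 0.025 (non-pregnant replicate 3 left out) and 0.027 (pregnant replicate 1) to 0.28 (pregnant replicate 2), and from 0.031 to 0.15 under other settings on both slides. The lowest of the other settings, 0.031, was that with the brightest probe of each gene. The slide median (0.031) ran from -0.083 to 0.28 with an array left out and from -0.027 to 0.18 under other settings. Directions turned mostly in probes near 0. For CTSD probe 1 (-0.023) and probe 2 (-0.0049) array weights gave 0.046 and 0.10, slide 1 alone 0.46 and 0.54, and for probe 2 normexp gave 0.030, while a difference of 0 came from the authors' deposited log2 values. Slide 2 alone turned CTSB probes 1 to 4 to -0.30, -0.29, -0.12 and -0.43, CTSH probes 1 and 2 to -0.25 and -0.11, and CTSZ to -0.54. With an array left out the difference by pregnancy ran from -0.17 to 0.14 for CTSD probe 1, from -0.17 to 0.19 for CTSD probe 2, from -0.095 to 0.17 for CTSH probe 1 and from -0.32 to 0.12 for CTSK. The slide difference of CTSB probe 3 was 0.28 among non-pregnant arrays alone and ran from -0.50 to 0.052 with an array left out. The interaction for CTSK (0.12) was -0.26 with median scaling and ran from -0.55 to 0.79 with an array left out. Median scaling moved the interaction's median to -1.40, with all probes at -0.39. The estimation of array weights stopped before its tolerance in 2 of 3 fits. The cause of these changes was not tested. Leaving out single arrays within a slide, and pregnant replicate 2 for listed genes, was added after the values were seen. Signal over background limits CTSV, and 4 sows a group limit the rest.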
